A study of Mus musculus with 16 samples.

Results

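The clustered protocadherins were taken as every gene of the count table whose mouse symbol starts with Pcdha, Pcdhb or Pcdhg, which gave 58 of 53801 gene IDs. The alpha cluster held 14 genes, the beta cluster 22 and the gamma cluster 22. They stand in tandem on the plus strand of chromosome 18 (GRCm38), with the alpha genes between 36930184 and 37187661, the beta genes between 37264938 and 37524479 and the gamma genes between 37661793 and 37841873. The alpha cluster was made up of 12 alternate genes (Pcdha1 to Pcdha12) and of 2 C-type genes (Pcdhac1 and Pcdhac2). The gamma cluster was made up of 12 A-type, 7 B-type and 3 C-type genes (Pcdhgc3, Pcdhgc4 and Pcdhgc5). The annotation names 2 IDs Pcdha11, and the one that starts at 37005203 (ENSMUSG00000007440) is called Pcdha10 here, the RefSeq symbol at that start.

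Clustered protocadherins are cell-surface adhesion proteins of the cadherin superfamily, best known from neurons, where they bind like with like across membranes and serve self-avoidance of neurites, synapse formation and neuronal survival. Each alpha or gamma gene carries its own promoter and a large variable exon, which codes for the extracellular and transmembrane parts and is spliced to constant exons shared by the cluster, whereas a beta gene is a single coding exon without constant exons. A neuron expresses a small, largely random set of the alternate genes from each parental allele, a choice tied to DNA methylation and to looping by CTCF and cohesin, while the C-type genes are expressed more uniformly.

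RNA was sequenced from the cortices and striata of 9 mice aged 10 days, of a mixed C57BL6/J-129sv background, in 16 libraries with 4 of each tissue and genotype, to ask how loss of Trrap in forebrain neurons changes expression. Trrap-FBΔ mice (Trrap Fl/Fl; Camk2-Cre tg) carry floxed alleles of Trrap, the adaptor subunit of several histone acetyltransferase complexes, together with a Cre transgene under the Camk2a promoter. The study describes the deletion as one of forebrain glutamatergic neurons, and also as one of pyramidal neurons of cortex and striatum. Controls (Trrap Fl/+; Camk2-Cre tg) carry the same transgene and 1 floxed allele, so that no group was free of Cre. The dissected tissue holds other cells too, and which cells lost Trrap was not measured here. The control cortices came from mice 55, 58, 63 and 64, the control striata from mice 58, 63, 64 and 65, and both tissues of the Trrap-FBΔ group from mice 57, 59, 60 and 61. Females made up 2 of 4 control cortices, 1 of 4 control striata and 3 of 4 libraries of each Trrap-FBΔ group.

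The libraries held 28743866 to 48761429 counts, of which 15678 to 30249 fell on the clustered protocadherins. Levels are given as CPM, counts scaled to a common library size after TMM normalisation. Trrap itself reached 136 to 172 CPM in the control cortices against 123 to 147 CPM in those labelled Trrap-FBΔ (log2 fold change -0.18, SE 0.075, edgeR adjusted p = 0.083), and 139.5 to 151 CPM against 136 to 149 CPM in the striata (-0.04, SE 0.048, adjusted p = 0.52). The groups overlapped in both tissues, so that the count over the whole gene did not separate the genotypes, and the group names rest on the labels. The study reports that Trrap was efficiently deleted in Trrap-FBΔ brains at this age, and refers to protein and qPCR measurements, which are not analysed here. Of 8 markers of striatal projection neurons, 1 (Tac1) was higher in control striata than in control cortices, and their summed level spanned 217 to 1123 CPM in the control striata and 253 to 692 CPM in the control cortices. All 6 excitatory neuron markers were lower in the striata. The control striatum of mouse 63 stood apart from its group, with a chi-square per degree of freedom of 25.7 to 40.4 against the other control striata, compared with 7.56 to 23.0 between other libraries of a group, and values without it are given below for each comparison that uses it.

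Reads that fall on exons of several genes were not assigned, so the shared constant exons of the alpha and gamma clusters are missing from these counts. The share of a gene's exon bases that no other gene covers on the same strand, called countable here, was 8.56% to 61.1% in the alpha cluster, 33.2% to 68.5% in the gamma cluster and 90.3% to 100% in the beta cluster. A level therefore stands for the variable exon of an alpha or gamma gene. Pcdha4 had the lowest countable share, because the readthrough gene Gm42416 covers most of it, and its counts summed to 3 over the 16 libraries. Its expression was not detectable in these counts, which does not show that it is absent. Pcdha8 had 1 to 10 counts per library and Pcdhb1 3 to 12, and of these 3 genes only Pcdhb1 passed the filter on low counts, in the striatum and in the fit of all libraries.

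Between genes, levels were compared per countable kb. In the control cortices the C-type genes led the order, with Pcdhgc3 at 26.6 ± 0.51 CPM per kb (SD, n = 4) and Pcdhac2 at 20.6 ± 1.8 CPM per kb. The next level was shared by Pcdhgc5 (8.37 ± 1.0 CPM per kb), Pcdhgc4 (8.16 ± 0.55) and the A-type gene Pcdhga11 (8.04 ± 0.55), which differed by less than their spread. Pcdhac1 was the exception among the C-type genes with 1.60 ± 0.21 CPM per kb, below the median of the alternate alpha genes. The 5 C-type genes together held 35.3% ± 0.72 of the summed level per kb of all 58 genes in the control cortices and 36.6% ± 0.77 in the control striata.

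Most alternate genes were expressed below the leading C-type genes. Median levels in the control cortices were 2.24 CPM per kb for Pcdha1 to Pcdha12, 1.57 CPM per kb for the beta genes, 3.22 CPM per kb for the gamma A-type and 1.52 CPM per kb for the gamma B-type genes. Pcdha12, the alternate alpha gene nearest to the C-type genes, was the highest of its kind with 4.55 ± 0.34 CPM per kb. The lowest levels among genes tested in the cortex were those of Pcdhgb5 (0.888 ± 0.14 CPM per kb), Pcdha1 (0.672 ± 0.18) and Pcdhgb8 (0.319 ± 0.035), and Pcdhgb8 is annotated as a polymorphic pseudogene. The plot of levels along the array shows the C-type genes at the end of both the alpha and the gamma cluster above most of the rest, with Pcdhac1 as the exception.

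**Figure D1:**
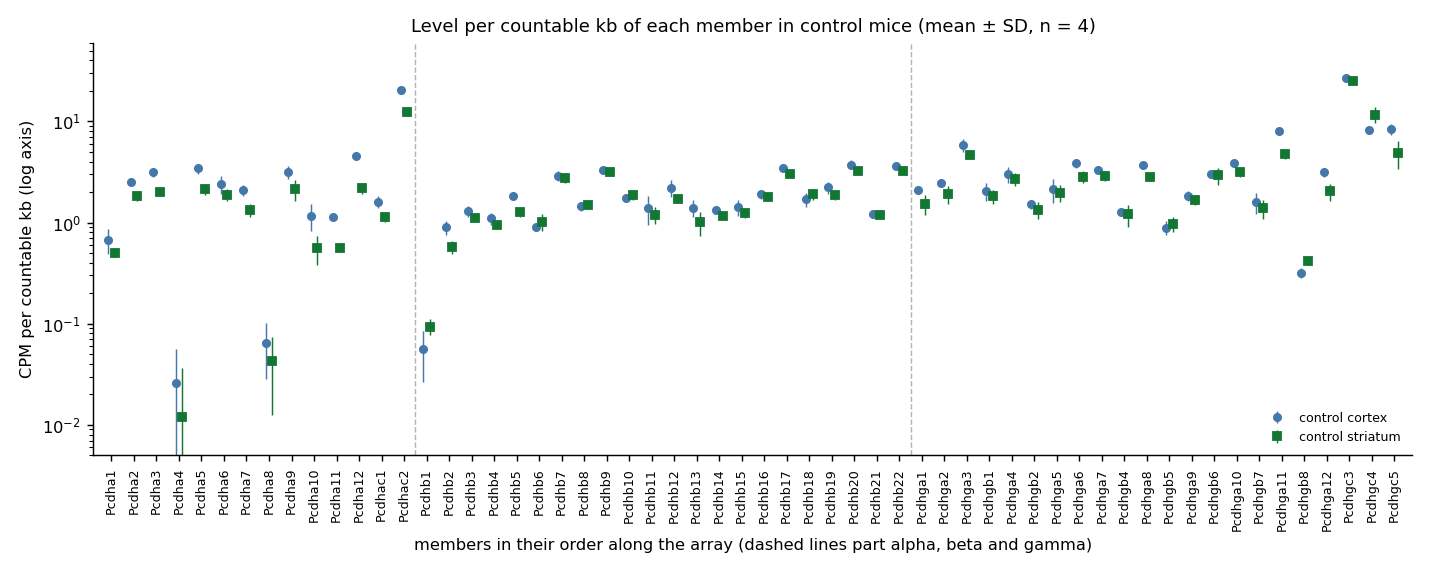
Level per countable kb (CPM per kb, log axis) of all 58 clustered protocadherins in their order on the chromosome, as the mean ± SD of 4 control cortices (circles) and 4 control striata (squares). Pcdhgc3 (26.6 in the cortex) and Pcdhac2 (20.6) stand highest, and Pcdha4, Pcdha8 and Pcdhb1 lie near the floor of detection.

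In the comparison of Trrap-FBΔ with control cortices, the alternate alpha genes and part of the beta genes were downregulated, while 2 of 22 gamma genes were called, in opposite directions. Of 55 clustered protocadherins tested, 17 were called lower (30.9%, beside 17.6% of all 18268 genes tested) and 2 were called higher (3.64%, beside 15.7%). In either direction 34.5% of the members were called, close to the 33.3% of all genes, and 27 members passed an unadjusted p under 0.05 (beside 44.0% of all genes). The groups did not overlap for 20 members with lower (beside 16.4%) and 2 with higher Trrap-FBΔ levels (beside 15.7%). The lower genes were 8 of 10 tested among Pcdha1 to Pcdha12 (median log2 fold change -0.62), 8 of 21 beta genes (-0.33) and 1 of 22 gamma genes (0.03), against a median of 0.00 over all genes. Because these are bulk samples, fewer cells of a type and less RNA per cell cannot be told apart in any of these values.

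The sum over Pcdha1 to Pcdha12 was 63.04, 57.2, 64.9 and 59.5 CPM in the control cortices of mice 55, 58, 63 and 64. It was 36.7, 40.8, 37.3 and 43.8 CPM in the Trrap-FBΔ cortices of mice 57, 59, 60 and 61. The groups did not overlap, and the ratio of the means was 0.648. The C-type genes did not follow, and the sum of Pcdhac1 and Pcdhac2 was 61.2 to 72.9 CPM in controls and 65.5 to 77.3 CPM in Trrap-FBΔ cortices, with overlapping groups. Over the whole alpha cluster the ratio was 0.870.

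Pcdha12 had the largest fall of all members in the cortex. Its level was 12.4, 10.5, 11.2 and 10.9 CPM in the control cortices and 4.68, 6.18, 6.36 and 6.82 CPM in the Trrap-FBΔ cortices (log2 fold change -0.90, SE 0.11, edgeR adjusted p = 0.00022). Pcdha3 was at 8.03, 7.19, 8.61 and 7.10 CPM in controls and at 5.54, 4.53, 4.85 and 4.73 CPM in Trrap-FBΔ cortices (-0.65, SE 0.097, adjusted p = 0.00053). Each Trrap-FBΔ cortex lay below every control cortex for both genes. Pcdha11 fell by 0.68 on the log2 scale (SE 0.11, adjusted p = 0.0012), Pcdha2 by 0.60 (SE 0.12, adjusted p = 0.0035), Pcdha7 by 0.54 (SE 0.11, adjusted p = 0.0039) and Pcdha5 by 0.42 (SE 0.097, adjusted p = 0.0072). Pcdha6 and Pcdha9 were called lower as well. Pcdha1 (-0.23, adjusted p = 0.41) and Pcdha10 (-0.69, SE 0.25, adjusted p = 0.054) were not called, and Pcdha10 spread widely in the controls, from 1.59 to 3.46 CPM.

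The sum of the beta genes fell less than that of Pcdha1 to Pcdha12. It was 181, 173, 186 and 167 CPM in the control cortices and 147, 145, 146 and 155 CPM in the Trrap-FBΔ cortices, a ratio of 0.840 with groups that did not overlap. Pcdhb22, the last gene of the cluster, was the clearest single change. It stood at 22.4, 22.9, 22.3 and 22.2 CPM in controls and at 16.1, 16.7, 17.9 and 16.1 CPM in Trrap-FBΔ cortices (log2 fold change -0.42, SE 0.061, adjusted p = 0.00045). The start of its first exon overlaps the end of Pcdhb21, and reads there were assigned to neither gene. Pcdhb5 fell by 0.41 on the log2 scale (SE 0.083, adjusted p = 0.0033), and Pcdhb4 had the largest fall of the cluster (-0.52, SE 0.14, adjusted p = 0.013). Against a fold change of 1.2 instead of no change, 1 of the 21 beta genes and 4 of the 12 alpha genes remained called. The share of all genes called by that test is not given here.

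The gamma cluster as a whole did not separate the genotypes in the cortex. Its sum was 297, 319, 305 and 310 CPM in controls and 276, 341, 314 and 357 CPM in Trrap-FBΔ cortices, so that the Trrap-FBΔ cortices lay on both sides of the controls. Within it Pcdhgc5 was upregulated. Pcdhgc5 is the last gene of the whole array, and it stood at 32.0, 42.7, 41.1 and 38.4 CPM in controls and at 47.0, 65.8, 55.4 and 60.9 CPM in Trrap-FBΔ cortices (log2 fold change 0.57, SE 0.11, adjusted p = 0.0022). All Trrap-FBΔ cortices exceeded all control cortices. Pcdhga12 was downregulated, with 13.4, 15.4, 12.8 and 15.9 CPM in controls and 8.55, 10.4, 9.24 and 12.1 CPM in Trrap-FBΔ cortices (-0.51, SE 0.11, adjusted p = 0.0042). Pcdhga11, the A-type gene that precedes Pcdhga12 in the array, had lower Trrap-FBΔ levels in every mouse but was not called (-0.25, SE 0.091, adjusted p = 0.051). Without the cortex of Trrap-FBΔ mouse 61, 4 gamma genes were called, among them Pcdhgc4 (-0.36, adjusted p = 0.013).

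The C-type genes did not move together in the cortex. Pcdhac1 was the other upregulated member, with 3.38, 4.02, 4.57 and 4.42 CPM in controls and 4.71, 5.38, 5.13 and 5.38 CPM in Trrap-FBΔ cortices (log2 fold change 0.325, SE 0.11, adjusted p = 0.039). Pcdhac2 (0.09, SE 0.073, adjusted p = 0.37), Pcdhgc3 (0.05, SE 0.044, adjusted p = 0.37) and Pcdhgc4 (-0.25, SE 0.11, adjusted p = 0.10) were not called, and their groups overlapped. The call of Pcdhac1 was lost on leaving out control mouse 55 or 58 or Trrap-FBΔ mouse 59, 60 or 61 (adjusted p = 0.078 to 0.086). It was lost too with sex as a covariate (adjusted p = 0.058) and without the filter on low counts (adjusted p = 0.054).

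**Figure D2:**
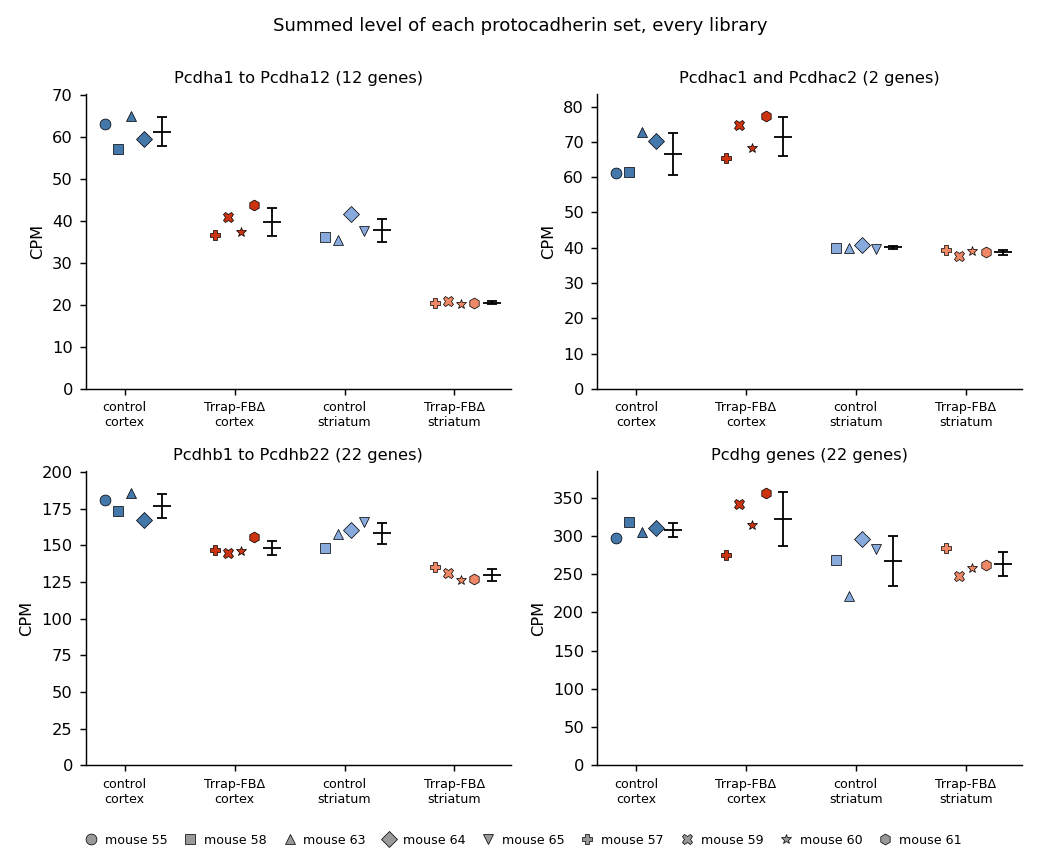
Summed level (CPM) of Pcdha1 to Pcdha12, of Pcdhac1 and Pcdhac2, of the beta genes and of the gamma genes in each of the 16 libraries, with symbols by mouse and the mean ± SD of each group at its right. For Pcdha1 to Pcdha12 and for the beta genes every Trrap-FBΔ library lies below every control library of its tissue, as it narrowly does for Pcdhac1 and Pcdhac2 in the striatum, and for the gamma genes the groups overlap.

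In the striatum the alternate alpha and the beta genes were again downregulated, and no member was upregulated. Of 56 clustered protocadherins tested, 22 were called lower (39.3%, beside 15.8% of all 18872 genes tested) and 0 higher (beside 14.4%). At an unadjusted p under 0.05, 28 members passed in either direction (beside 41.9%), with 10 members above and 46 below a log2 fold change of 0. In 23 members every Trrap-FBΔ striatum lay below every control (beside 15.5%), and in 0 above (beside 16.0%). The lower genes were 8 of 10 tested among Pcdha1 to Pcdha12 (median log2 fold change -0.83), Pcdhac1, 12 of 22 beta genes (-0.28) and 1 of 22 gamma genes (median 0.00), against a median of -0.01 over all genes. All 22 beta genes had a log2 fold change below 0. The comparisons of the tissues share 7 mice, since 4 Trrap-FBΔ and 3 control mice gave both tissues, so that the striatum is not independent of the cortex.

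The sum over Pcdha1 to Pcdha12 was 36.2, 35.4, 41.7 and 37.5 CPM in the control striata of mice 58, 63, 64 and 65. In the Trrap-FBΔ striata it was 20.5, 21.0, 20.1 and 20.4 CPM, a ratio of 0.544. The groups did not overlap, and the Trrap-FBΔ striata lay within 1 CPM of each other. The sum of Pcdhac1 and Pcdhac2 was 39.5 to 40.7 CPM in controls and 37.8 to 39.3 CPM in Trrap-FBΔ striata, groups that lay close but did not overlap.

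Pcdha12 and Pcdha9 had the largest falls. Pcdha12 stood at 5.76, 4.45, 5.34 and 6.03 CPM in the control striata and at 2.43, 2.59, 2.43 and 2.60 CPM in the Trrap-FBΔ striata (log2 fold change -1.11, SE 0.11, adjusted p = 0.00019). Pcdha9 stood at 4.63, 4.17, 6.93 and 5.40 CPM against 2.12, 2.31, 2.67 and 2.36 CPM (-1.16, SE 0.16, adjusted p = 0.00071). Both genes were lower in every Trrap-FBΔ striatum than in any control. Pcdha6 fell by 1.02 on the log2 scale (SE 0.14, adjusted p = 0.00076), Pcdha5 by 0.91 (SE 0.11, adjusted p = 0.00044), Pcdha3 by 0.88 (SE 0.094, adjusted p = 0.00024), Pcdha11 by 0.77 (SE 0.14, adjusted p = 0.003) and Pcdha2 by 0.69 (SE 0.13, adjusted p = 0.003). Pcdha7 was called lower too. As in the cortex, Pcdha1 (-0.555, adjusted p = 0.065) and Pcdha10 (-0.44, adjusted p = 0.19) were not called, and per kb they were the lowest of the tested alternate alpha genes in the control striata (0.505 and 0.556 CPM per kb).

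The beta sum was 149, 158, 161 and 166 CPM in the control striata and 135, 131, 127 and 127 CPM in the Trrap-FBΔ striata, a ratio of 0.821. Pcdhb20 stood at 10.98, 11.9, 12.0 and 11.1 CPM against 9.58, 8.78, 8.80 and 9.25 CPM (log2 fold change -0.34, SE 0.066, adjusted p = 0.0039). Pcdhb19 stood at 11.4, 13.5, 13.4 and 15.3 CPM against 9.78, 9.69, 9.58 and 10.5 CPM (-0.44, SE 0.087, adjusted p = 0.0044). The groups did not overlap for either gene. Pcdhb4 had the largest fall of the cluster here as in the cortex (-0.57, SE 0.11, adjusted p = 0.0045). Against a fold change of 1.2, 2 of the 22 beta genes remained called, a count again given without the share of all genes.

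Among the C-type genes, Pcdhac1 was downregulated in the striatum, opposite to the cortex, with 3.21, 2.52, 2.88 and 2.98 CPM in controls and 2.14, 2.08, 2.37 and 2.19 CPM in Trrap-FBΔ striata (log2 fold change -0.40, SE 0.11, adjusted p = 0.02). Pcdhgc5 spread widely in both groups, from 17.0 to 32.4 CPM in controls and from 17.3 to 31.1 CPM in Trrap-FBΔ striata (-0.01, SE 0.22, adjusted p = 0.99). Pcdhac2 (-0.03, SE 0.043), Pcdhgc3 (-0.08, SE 0.067) and Pcdhgc4 (0.00, SE 0.12) were not called. The gamma sum was 269, 222, 296 and 283 CPM in controls and 285, 248, 258 and 262 CPM in Trrap-FBΔ striata, and the low control is mouse 63. Without that library the log2 ratio of the gamma sums was -0.10 instead of -0.02, that of the alpha sums -0.41 instead of -0.39 and that of the beta sums -0.29, and 22 members were called lower, as with it. The named calls held without it, with Pcdha12 at -1.19 (adjusted p = 0.00016), Pcdha9 at -1.26 (0.00064), Pcdhb20 at -0.32 (0.0079), Pcdhb19 at -0.44 (0.0088) and Pcdhac1 at -0.46 (0.012). Gamma genes called in the striatum numbered 2 without control mouse 63, 64 or 65 and 0 without Trrap-FBΔ mouse 59 or 61, and 1 member was called higher without control mouse 64 or 65. The call of Pcdhac1 was lost on leaving out Trrap-FBΔ mouse 57 (adjusted p = 0.055) or 59 (0.054), and with sex as a covariate (0.095).

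**Figure D3:**
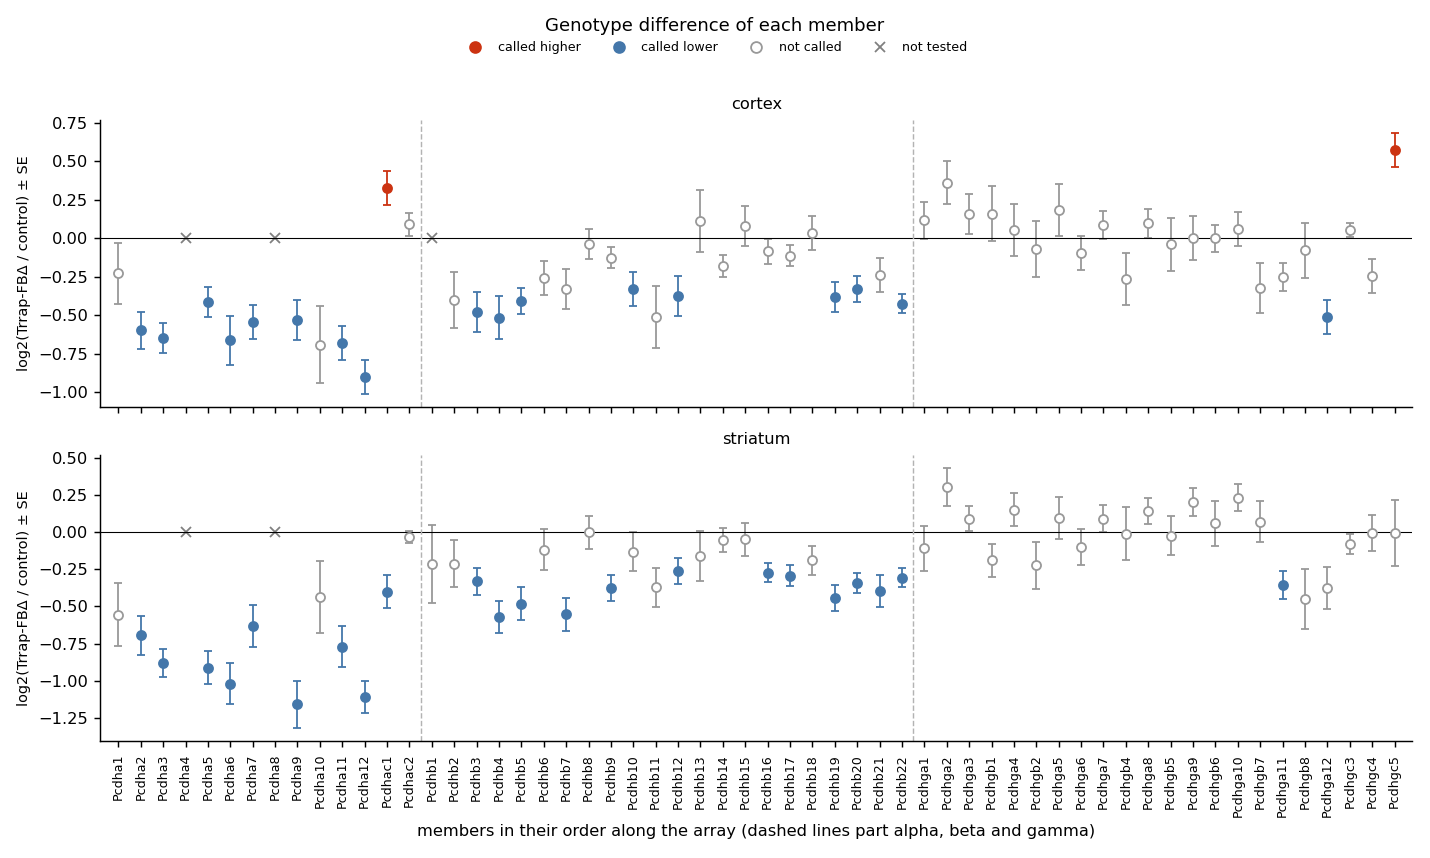
Log2 fold change of Trrap-FBΔ over control (± SE, edgeR) for each member in its order on the chromosome, in the cortex (top) and the striatum (bottom), with genes called lower in blue, called higher in red, not called as open circles and not tested as crosses. All tested alternate alpha genes lie below 0 in both tissues, with Pcdha12 lowest in the cortex (-0.90) and Pcdha9 in the striatum (-1.16), the beta genes lie mostly below 0, and most gamma genes scatter around 0, with Pcdhgc5 (0.57) and Pcdhga12 (-0.51) farthest from it in the cortex.

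Of the members, 15 were called lower in both tissues, 8 of Pcdha1 to Pcdha12 and 7 beta genes, while 2 were past the threshold in the cortex alone and 7 in the striatum alone. Among all genes, 17.6% were called lower in the cortex and 15.8% in the striatum. The share of all genes lower in both was not counted, so the overlap is not read as particular to the members. A difference in genotype effect from tissue to tissue was tested as the interaction in the fit of all 16 libraries. Of 56 members 1 passed (1.79%, beside 0.437% of all 19438 genes tested), and it was Pcdhac1. Its difference of log2 fold changes was -0.73 (striatum minus cortex, SE 0.15, adjusted p = 0.042), with all Trrap-FBΔ libraries above the controls in the cortex and all below them in the striatum. At an unadjusted p under 0.05, 5 members passed, beside 12.1% of all genes. The others among these were Pcdha5 (-0.50, SE 0.15, adjusted p = 0.15), Pcdha9 (-0.63, SE 0.22, adjusted p = 0.23), Pcdhb9 (-0.25, SE 0.10, adjusted p = 0.34) and Pcdhgc5 (-0.58, SE 0.27, adjusted p = 0.40). They are named for that unadjusted p after their values were seen. The difference did not pass for Pcdhac2 (-0.12, SE 0.089), Pcdhgc3 (-0.13, SE 0.081) or Pcdhgc4 (0.24, SE 0.17). The call of Pcdhac1 was lost on leaving out any of 12 of the 16 libraries (adjusted p = 0.055 to 0.11), with sex as a covariate (0.055) and after thinning to equal depth (0.063), and it held with the mouse as a block (0.022) and without the control striatum of mouse 63 (-0.78, adjusted p = 0.04).

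**Figure D4:**
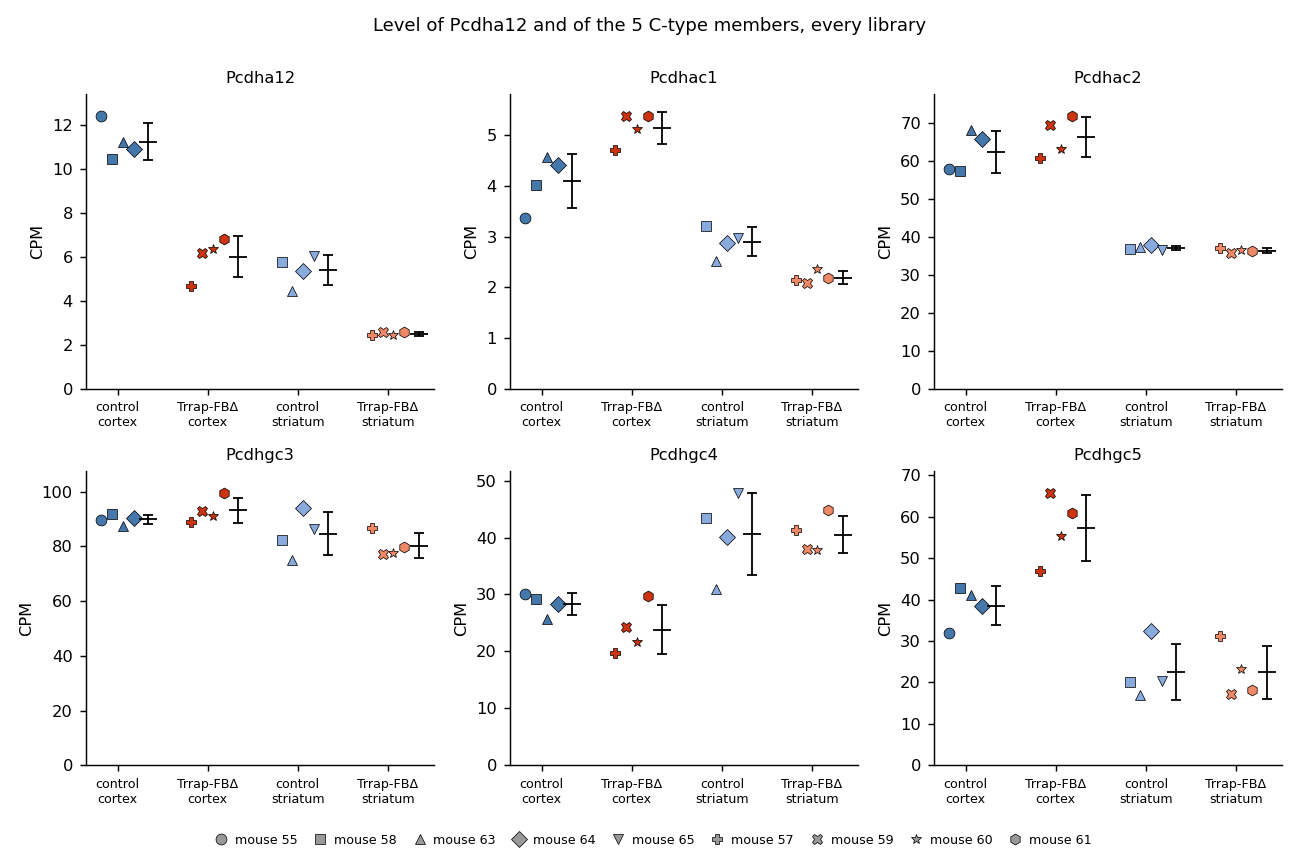
Level (CPM) of Pcdha12 and of the 5 C-type genes in each of the 16 libraries, with symbols by mouse and the mean ± SD of each group at its right. Pcdha12 is lower in Trrap-FBΔ libraries of both tissues, Pcdhac1 is higher in the cortex and lower in the striatum, Pcdhgc5 is higher in the cortex, and Pcdhgc4 is the C-type gene with higher levels in striata than in cortices.

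Compared with the cortex, the striatum of control mice had lower levels of the alpha cluster, and to a lesser degree of the beta and gamma clusters. Adjusted p values of the tissue comparisons come from the fit of all 16 libraries without a term for the mouse, although 7 mice gave both tissues. Of 56 members, 25 were called lower (44.6%, beside 22.0% of all 19438 genes) and 1 was called higher (1.79%, beside 22.5%). In either direction 46.4% of the members and 44.5% of all genes were called, and 33 members passed an unadjusted p under 0.05 (beside 50.9%). The tissues did not overlap for 20 members lower (beside 18.6%) and 2 higher in the striatum (beside 18.8%). The lower genes were 10 of 12 alpha (median -0.65), 7 of 22 beta (-0.185) and 8 of 22 gamma genes (-0.19), against a median of 0.01 over all genes. The alpha cluster was at 0.609 times the cortical level in controls, the beta cluster at 0.895 times and the gamma cluster at 0.869 times. The gamma sums of 222 to 296 CPM in the control striata lay below the 297 to 319 CPM of the control cortices.

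Pcdhac2, the most abundant alpha gene, stood at 57.8, 57.5, 68.3 and 65.9 CPM in the control cortices and at 36.8, 37.5, 37.8 and 36.5 CPM in the control striata (log2 fold change -0.75, SE 0.063, adjusted p = 7.6e-08). Pcdha12, with the values given above, had a log2 fold change of -1.06 (SE 0.11, adjusted p = 9.1e-07). The tissues did not overlap for either gene. Pcdha11 (-1.01, SE 0.12, adjusted p = 4.3e-06), Pcdha5 (-0.69, SE 0.10, adjusted p = 3.6e-05), Pcdha7 (-0.65, SE 0.13, adjusted p = 0.00041), Pcdha3 (-0.645, SE 0.089, adjusted p = 1.6e-05) and Pcdhac1 (-0.51, SE 0.11, adjusted p = 0.00086) were lower too. In the other clusters the lower genes included Pcdhb5 (-0.52, SE 0.091, adjusted p = 0.00017), Pcdhga11 (-0.775, SE 0.097, adjusted p = 5.5e-06) and Pcdhga12 (-0.65, SE 0.13, adjusted p = 0.00077).

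The gamma C-type genes diverged between the tissues. Pcdhgc4 was the member called higher, with 30.1, 29.2, 25.7 and 28.3 CPM in the control cortices and 43.4, 30.9, 40.0 and 47.9 CPM in the control striata (0.51, SE 0.12, adjusted p = 0.0028). Its groups did not overlap, although the striatum of mouse 63 came within 1 CPM of the highest cortex. Pcdhgc5 was lower in the striata (-0.785, SE 0.19, adjusted p = 0.003), with overlapping groups, and Pcdhgc3 was not called (-0.09, SE 0.057, adjusted p = 0.21). The gamma B-type genes summed to 22.4 to 32.3 CPM in the control striata and to 28.6 to 32.2 CPM in the control cortices, and by edgeR 0 of these 7 genes were called, with 1 at an unadjusted p under 0.05. Pcdhgc3 was called on leaving out the striatum of mouse 64 (-0.16, adjusted p = 0.034), and a member besides Pcdhgc4 was higher without the cortex of mouse 55 (2 in all). Without the striatum of mouse 63, Pcdhac2 was at -0.76 (adjusted p = 3.5e-07), Pcdha12 at -0.99 (3e-06), Pcdhgc4 at 0.62 (0.00025) and Pcdhgc5 at -0.675 (0.011). Without that library 20 members were called lower and 1 higher, 4 beta genes were called (4 also without the cortex of mouse 63 or the striatum of mouse 58), and the log2 ratio of the gamma sums was -0.12 instead of -0.20.

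In Trrap-FBΔ mice the same contrast gave 31 of 56 members lower (55.4%, beside 25.9% of all genes) and 3 higher (5.36%, beside 26.5%), or 60.7% in either direction beside 52.3%. An unadjusted p under 0.05 was passed by 37 members (beside 57.2%), and the tissues did not overlap for 26 members lower (beside 23.4%) and 3 higher in the striatum (beside 25.7%). All 12 alpha genes tested were lower, with a median of -0.88, as were 9 beta and 10 gamma genes. Pcdhac1 had 4.71 to 5.38 CPM in the cortices and 2.08 to 2.37 CPM in the striata (log2 fold change -1.24, SE 0.11, adjusted p = 4.8e-08). Pcdhgc5 had 47.0 to 65.8 CPM in the cortices and 17.3 to 31.1 CPM in the striata (-1.36, SE 0.19, adjusted p = 1.4e-05). The tissues did not overlap for these genes. The higher genes were Pcdhgc4 (0.75, SE 0.12, adjusted p = 7.2e-05), Pcdhb6 (0.31, SE 0.12, adjusted p = 0.044) and Pcdhb10 (0.29, SE 0.12, adjusted p = 0.05 after rounding). With any 1 library left out, at most 2 members were called higher. Only 1 was called higher without the cortex of mouse 57, 60 or 61 or the striatum of mouse 57. Pcdhac2 (-0.88, SE 0.063, adjusted p = 6.4e-09) and Pcdhgc3 (-0.23, SE 0.057, adjusted p = 0.0031) were lower, and Pcdha12 had the largest fall of the alternate genes (-1.27, SE 0.12, adjusted p = 1.4e-07). Pcdha5 (-1.19), Pcdha9 (-1.21), Pcdha11 (-1.11), Pcdha3 (-0.88), Pcdhga11 (-0.88) and Pcdhb5 (-0.60) were lower too. Both contrasts use their own mice, but the test of their difference is the interaction above, which passed for Pcdhac1 alone.

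**Figure D5:**
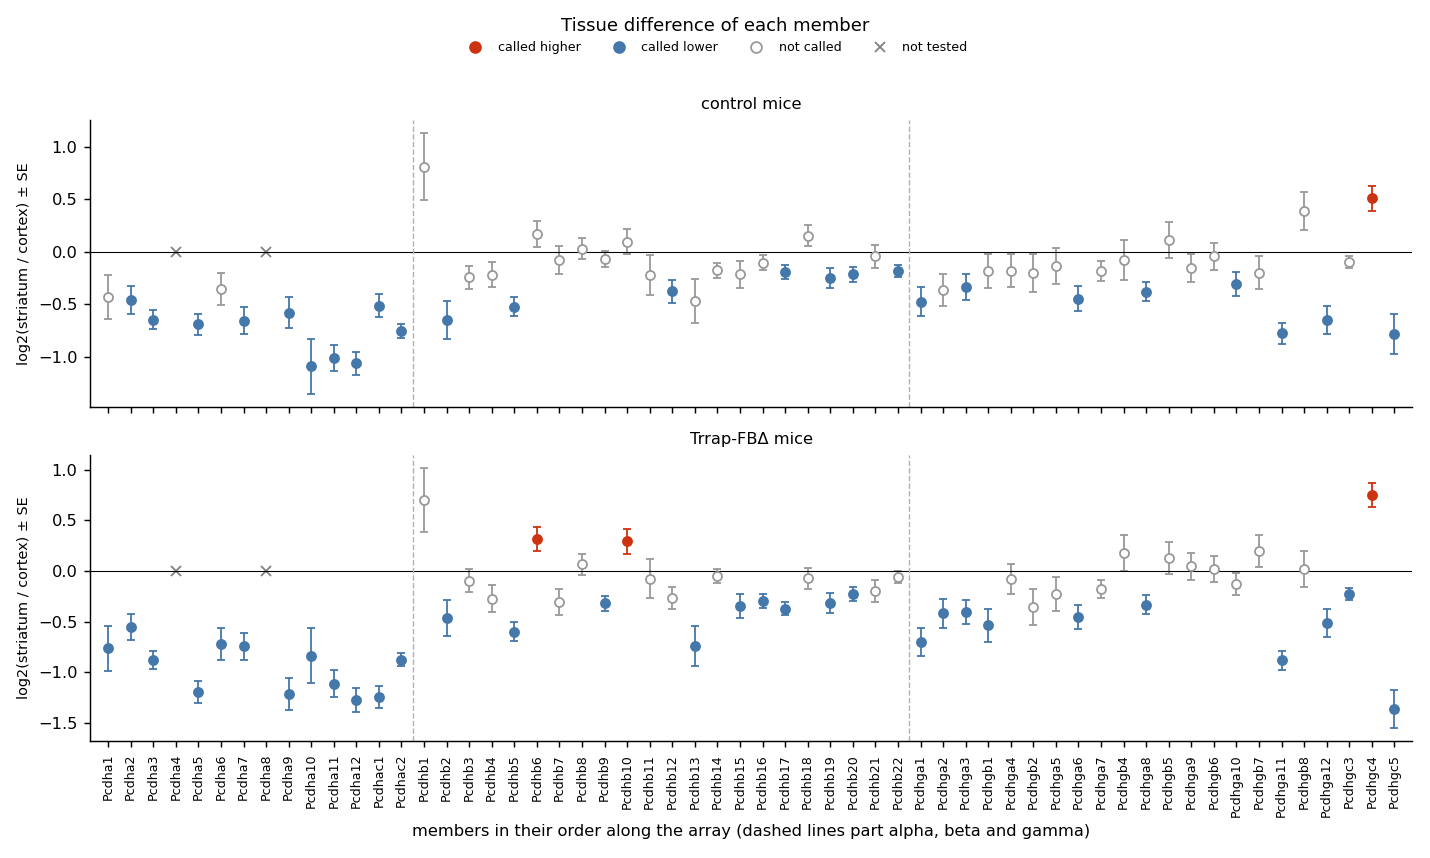
Log2 fold change of striatum over cortex (± SE, edgeR) for each member in its order on the chromosome, in control mice (top) and Trrap-FBΔ mice (bottom), with the colours of the plot of genotype differences. The alpha genes lie below 0 in both panels, and Pcdhgc4 (0.51 and 0.75) is called higher in both.

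Position along the array was looked at for the alternate genes. Among the 10 tested genes of Pcdha1 to Pcdha12, Spearman's rank correlation between the order on the chromosome and the log2 fold change of the genotype was -0.709 for cortices and -0.297 for striata, and for striatum over cortex in controls it was -0.721. In the cortex the alternate genes nearer to the constant exons thus tended to have the larger falls. The C-type genes Pcdhac1 (0.325) and Pcdhac2 (0.09) lie nearer still, did not fall in the cortex and were not part of the correlation. The genotype value of the cortex and the tissue value of controls both use the control cortices. The rank correlation for the genotype was 0.329 across 21 beta genes in the cortex and -0.00508 across 22 in the striatum. These genes share libraries and normalisation, and the values are a description across genes.

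The genes around the array were described from a list of neighbours within 500 kb. Of 28 flanking genes tested in the cortex 3 were called higher and 8 lower (median -0.01), and of 29 in the striatum 2 were higher and 5 lower (-0.01), beside 33.3% and 30.2% of all genes called in either direction. Of the genes inside the array that are no protocadherins, 6 were tested in the cortex, with 1 higher, and 7 in the striatum, with 1 higher and 2 lower. Gm10544, an RNA annotated on the opposite strand with 3 to 59 counts per library, was higher in both tissues (1.10, SE 0.36, adjusted p = 0.036 in the cortex and 1.19, SE 0.19, adjusted p = 0.0015 in the striatum). Gm10545 (-1.07, SE 0.25, adjusted p = 0.01) and BC037039 (-0.51, SE 0.16, adjusted p = 0.032), both annotated as antisense, were lower in the striatum. These 3 are named after their values were seen. Taf7, the best counted gene inside the array, lies between the beta and gamma clusters, had 450 to 956 counts per library and was not called in either tissue.

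Genes of the protocadherin pathway were taken from lists. Of 24 genes of promoter choice and chromatin, which include Ctcf and the cohesin subunits, 2 were higher and 3 lower in the cortex (median 0.05) and 5 higher and 2 lower in the striatum (0.04). Among all genes, 33.3% were called in either direction in the cortex and 30.2% in the striatum, so this list held no larger share. In both tissues Stag1, a cohesin subunit, was higher (0.185 in the cortex, SE 0.041, adjusted p = 0.0056, and 0.25 in the striatum, SE 0.044, adjusted p = 0.0026), while the cohesin regulator Pds5b (-0.22 and -0.22) and the zinc finger gene Wiz (-0.20 and -0.16) were lower. Ctcf itself was called neither in the cortex (0.06, SE 0.037, adjusted p = 0.21) nor in the striatum (0.01, SE 0.045, adjusted p = 0.91). Dnmt3b, a DNA methyltransferase known to act on protocadherin promoters, was higher in the striatum (0.43, SE 0.11, adjusted p = 0.017). Stag1, Pds5b, Wiz and Dnmt3b are named after their values were seen.

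Of 18 intracellular partners, such as kinases and the WAVE complex, 2 were higher and 4 lower in the cortex (median -0.03) and 0 higher and 6 lower in the striatum (-0.13). In the striatum 4 of the lower genes code for parts of the WAVE complex, Wasf1 (-0.31), Cyfip1 (-0.19), Nckap1 (-0.15) and Abi1 (-0.17). The list also holds Cyfip2, Abi2 and Brk1 of the same complex, which are not among these 4. Marcks, an actin-linked substrate of protein kinase C, was lower in both (-0.585, SE 0.064, adjusted p = 8.7e-05, and -0.31, SE 0.064, adjusted p = 0.0056). Among genes of protocadherin cleavage, the protease gene Adam10 was lower (-0.19, SE 0.045, adjusted p = 0.0098) and Ncstn higher (0.21, SE 0.065, adjusted p = 0.034) in the striatum. The sorting nexin Snx27, 1 of 2 trafficking genes, was lower in both tissues (-0.22 and -0.20). Of 12 non-clustered protocadherins, which lie outside the array and share no constant exons, 6 were lower in the cortex (median -0.15) and 3 in the striatum (-0.10), and none was higher. Pcdh1 and Pcdh12 of this list lie within 500 kb of the array and are counted among the flanking genes as well. Pcdh12 (-0.83, adjusted p = 7.2e-05, and -0.58, adjusted p = 0.013) and Pcdh11x (-0.48, adjusted p = 0.0033, and -0.44, adjusted p = 0.0036) were lower in both. These counts stand beside 33.3% of all genes called in either direction in the cortex (17.6% lower) and 30.2% in the striatum (15.8% lower). Single genes of these lists are named after their values were seen.

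Cell type markers moved with the genotype beside these results. The summed level of 7 immature neuron markers was 2632 to 3638 CPM in control and 1263 to 1674 CPM in Trrap-FBΔ cortices, with 6 called lower, and 1950 to 2231 CPM against 1127 to 1286 CPM in the striata, with 5 called lower. Beside these counts, 17.6% of all genes were called lower in the cortex and 15.8% in the striatum. The immature neuron list includes Tubb3 and Gap43, which the study gives among its top differentially expressed Sp1 targets. In bulk tissue a fall of such markers does not tell fewer cells from less RNA per cell. All 6 microglia markers (341 to 386 CPM against 243 to 317 CPM), all 6 markers of oligodendrocyte precursors (570 to 666 CPM against 450.5 to 528 CPM), all 6 of mature oligodendrocytes (1755 to 3142 CPM against 1299 to 2025 CPM) and 4 of 5 of endothelial cells were lower in the cortex. In the striatum 5 of 6 microglia markers (279 to 339 CPM against 233 to 250 CPM), 3 of 6 of oligodendrocyte precursors (758 to 1064 CPM against 668 to 819 CPM) and 1 of 5 of endothelial cells were lower, and the 6 of mature oligodendrocytes spanned 3135 to 9326 CPM against 3921 to 6913 CPM, with 0 called by edgeR and 0 at an unadjusted p under 0.05. Excitatory neuron markers had 1 of 6 lower in the cortex (1381 to 1788 CPM against 1587 to 1665 CPM) and 4 of 6 lower in the striatum (293 to 511 CPM against 190.5 to 299 CPM). Of 8 striatal projection neuron markers 0 were called in either tissue, with medians of -0.275 in the cortex and -0.542 in the striatum. Their sum in the striata was 217 to 1123 CPM against 331 to 546 CPM. Of 4 choroid plexus markers 0 were called in either tissue, and their sum in the striata was 115 to 558 CPM against 275 to 734 CPM. Astrocyte markers had 2 of 8 higher and 2 lower in the cortex and 2 higher and 1 lower in the striatum, and interneuron markers had 1 of 6 higher in the cortex and 1 higher and 1 lower in the striatum. Between the tissues, excitatory (6 of 6), immature neuron (6 of 7) and microglia markers (5 of 6) were lower in control striata (beside 22.0% of all genes), and all 12 markers of the oligodendrocyte lineage were higher (beside 22.5%). No marker of these lists was at 0 counts in all libraries of a group. Their part in the protocadherin differences was not tested.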

How the data were processed

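RNA of 16 cortex and striatum libraries was sequenced by the authors as 51-base single-end, strand-specific mRNA reads, which were mapped with STAR 2.5.4b to GRCm38. They deposited raw counts per Ensembl gene, made with featureCounts 1.5.0 from uniquely mapped reads with Ensembl release 92 annotation. Reads over exons of several genes are therefore missing from the counts, which lowers the values of genes with shared exons. Symbols, and the exon bases that belong to 1 gene only on a strand, were taken from GENCODE vM21 on the same build, which gave 53620 of 53801 IDs a symbol.

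Library totals ranged from 28743866 to 48761429 counts, and every fit used all genes. Genotypes were compared within each tissue, and tissues and the interaction in 1 fit of all 16 libraries, by edgeR 4.0.16 quasi-likelihood tests (R 4.3.3) after TMM normalisation and filterByExpr. Genes were called at a Benjamini-Hochberg adjusted p under 0.05 over all genes tested. The script was tested on simulated data. Summed cluster levels and levels per kb got no test. Alternatives covered other normalisations, DESeq2 1.42.0, limma-voom (limma 3.58.1), filters, a minimum fold change of 1.2, sex, thinning, a block for the mouse and each library left out. The study itself used DESeq2.

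The text names, per comparison, up to 10 called members with the smallest adjusted p, the 5 C-type genes, the 5 highest and the 3 lowest tested per kb in the control cortex, and members called in the interaction. Values added to these are those of uncalled neighbours in the order and of genes in small counts. The members and lists were chosen with earlier results of these data known. Replicates are different mice, and 7 mice gave both tissues. Cortex and striatum of the same mouse deviated together from their group means, with a correlation of 0.14 to 0.416 in 7 of 7 mice. It was -0.305 to 0.143 between different mice of one genotype and reached 0.149 between mice of different genotypes. The ranges met only at their ends, so the mouse pairs the tissue comparisons. The main fit of the tissues and of the interaction had no term for the mouse, which entered only in the alternatives with a block. No sequence of the members is printed. Some genes of the lists are not reported here.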

Additional observations from a re-analysis of the deposited data

Results flagged for a closer look

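In 5 of 104 groups of 4 libraries, 1 library lay far from the other 3 by Dixon's criterion, which chance gives in about 5% of groups. The control striatum of mouse 63 held 3 of them. Pcdhb22 was at 17.7 CPM there against 20.6 to 20.8 CPM in the other control striata, Pcdhgb5 at 3.33 CPM against 4.71 to 4.92 CPM, and Pcdha3 at 5.12 CPM against 4.89 to 4.91 CPM. The Trrap-FBΔ mouse 57 held the others, with Pcdha6 at 1.64 CPM in its striatum against 2.23 to 2.31 CPM, and Pcdhgb5 at 2.65 CPM in its cortex against 4.29 to 4.52 CPM. For Pcdhac1 the genotype effect was called different between the tissues (striatum minus cortex -0.73 in log2, edgeR adjusted p = 0.042). Its level was higher in 4 of 4 Trrap-FBΔ cortices and lower in 4 of 4 Trrap-FBΔ striata than in every control of the tissue. The gene was picked by that test on these libraries, so this separation is no independent evidence. The call was lost on leaving out any of 12 of the 16 libraries. It was lost too with sex as a covariate, after thinning and in the test against a minimum fold change. With the mouse as a block it held.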

How the results depend on the processing

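The called results followed under every alternative were those of up to 10 members per comparison with the smallest adjusted p and of the C-type genes. Weaker calls are left out, among them those of Pcdhb6 and Pcdhb10 between the tissues of Trrap-FBΔ mice. Of these 47 results, 0 changed direction under any alternative run and 37 kept the call under all of them. Of the others, 10 lost it in the test against a fold change of 1.2, and 3, all of Pcdhac1, lost it elsewhere. Against a fold change of 1.2 the members called were 6 in the cortex (1 higher, 5 lower), 9 in the striatum (all lower), 15 between the tissues of controls (14 lower), 18 in Trrap-FBΔ mice (1 higher, 17 lower) and 0 for the interaction, compared with 19, 22, 26, 34 and 1. The interaction also gave 0 with sex as a covariate and after thinning. Members called higher numbered 1 in the cortex with sex as a covariate, 1 in the striatum with upper-quartile normalisation, 2 in control tissues with upper-quartile normalisation or limma-voom, and 1 in Trrap-FBΔ tissues with DESeq2 or without the filter. Counts of members under the alternatives of this section are given without the share of all genes called in the same fit. They do not tell whether members kept or lost calls more often than other genes.

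Leaving out each library in turn gave 16 to 21 called members in the cortex (1 to 3 higher, 15 to 19 lower), 19 to 22 in the striatum (0 to 1 higher, 19 to 22 lower), 21 to 28 between control tissues (1 to 2 higher, 20 to 27 lower), 29 to 36 between Trrap-FBΔ tissues (1 to 2 higher, 28 to 35 lower) and 0 to 1 for the interaction. The log2 ratio of the summed alpha level ran from -0.244 to -0.161 for cortices and from -0.408 to -0.365 for striata, that of the beta level from -0.278 to -0.227 and from -0.314 to -0.261, and that of the gamma level from 0.0131 to 0.133 and from -0.104 to 0.0287. For striatum over cortex it was -0.748 to -0.676 (alpha), -0.185 to -0.13 (beta) and -0.255 to -0.122 (gamma) in controls, and -0.947 to -0.865, -0.212 to -0.169 and -0.359 to -0.239 in Trrap-FBΔ mice.

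Summed levels moved by more than their spread with library totals alone in place of TMM. Alpha was then -0.314 in the genotype comparison of the striatum, -0.616 between control tissues and -0.799 between Trrap-FBΔ tissues, and beta was -0.184 in the cortex, -0.205 in the striatum, -0.0608 between control tissues and -0.0819 between Trrap-FBΔ tissues. Upper-quartile normalisation gave -0.247 for beta between Trrap-FBΔ tissues. The median over members, which does not weight genes by abundance, was -0.577 for alpha in the cortex, -0.727 for alpha in the striatum and -0.331 for beta in the cortex. The C-type share of the level per kb was 31.6% in control cortices and 32.6% in control striata over all exon bases, and 33.6% and 34.9% over 51-base windows found in the transcripts of 1 gene only, an alternative chosen after seeing the data. The planned count of unique windows over the genome was not run, because no genome sequence was used.

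Pcdhgc4 and Pcdhgc5 had genotype effects near 0 in the striatum, uncalled throughout, whose sign turned with upper-quartile normalisation (0.0182 and 0.0165), limma-voom (0.0122 and 0.00292), no filter (0.00284 and 0.00143) and sex (0.0994 and 0.153), and over the libraries left out (-0.114 to 0.0835 and -0.201 to 0.221). With the mouse as a random block in limma-voom, 30 members were called between control tissues (28 lower, 2 higher), 37 between Trrap-FBΔ tissues (33 lower, 4 higher) and 1 in the interaction (Pcdhac1, -0.70, adjusted p = 0.022). With the mouse as a fixed block in edgeR, 34 were called between Trrap-FBΔ tissues (32 lower, 2 higher). No paired analysis was possible for the genotype comparisons because control and Trrap-FBΔ libraries share no mouse. The cause of these shifts was not tested.

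Depth limits the low members. Pcdha4 and Pcdha8 were tested nowhere and Pcdhb1 not in the cortex, and values of alpha and gamma genes rest on their variable exons.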
